A study of Homo sapiens with 4 samples.

Results

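The organic anion transporting polypeptides (OATPs) are the membrane transporters encoded by the SLCO genes, and 10 of them were examined here among the 25992 gene names read by the arrays: SLCO1A2, SLCO1B1, SLCO1B3, SLCO1C1, SLCO2A1, SLCO2B1, SLCO3A1, SLCO4A1, SLCO4C1 and SLCO5A1. They were chosen by name, as every probe that the array design assigns to one of these symbols, which gave 15 probes on 24 spots per array. The cells were 2 human proximal tubular cell lines, HK-2, immortalised with papillomavirus E6 and E7, and RPTEC/TERT1, immortalised with telomerase (TERT). All of them had been starved for 24 h and then exposed for 24 h to IL-1β at 10 ng/mL together with empagliflozin (Empa), an inhibitor of the sodium-glucose transporter SGLT2, at 500 nM. Each label has 2 arrays, so there are 4 in all, called H1 and H2 (HK-2, replicates 1 and 2) and R1 and R2 (RPTEC/TERT1, replicates 1 and 2). Values given 4 in a row without names stand in this order. Every array carries both agents, and neither untreated cells nor cells given IL-1β without Empa were analysed here, so nothing below measures an effect of either agent.

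OATPs carry large amphipathic organic anions across the plasma membrane independently of sodium, among them bile acids, conjugated steroids, thyroid hormones, prostaglandins and many drugs. SLCO1B1 and SLCO1B3 are the uptake transporters of the hepatocyte, SLCO1C1 carries thyroxine in brain, and SLCO2A1 is the prostaglandin transporter. In the human kidney the best known member is SLCO4C1, on the basolateral side of the proximal tubule. Transcript levels do not show how much transporter protein reaches the membrane.

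The level of a probe is the log2 ratio of its processed signal to the 75th percentile of signals on the same array, so that a level of 0 is the brightness of that percentile. Signals were held at a common floor of -5.37, and a probe is called well above background where Agilent Feature Extraction marks it so. The 75th percentile was between 393 and 748 on the 4 arrays, and between 59.2% and 64.9% of the spots were well above background. Before any result is read, the arrays have to be set against their labels. Over 17928 genes measured on every array and detected (well above background) on 1 or more, the Pearson correlation was 0.865 for H1 with H2 and 0.855 for R1 with R2. It was 0.980 for H1 with R2 and 0.976 for H2 with R1, but 0.861 for H1 with R1 and 0.875 for H2 with R2. Each array therefore resembled 1 array of the other label more than its own replicate, and is named here only by its label. CDKN2A, whose product p16 is known to accumulate where papillomavirus E7 inactivates the retinoblastoma protein, had levels of 0.29 and 4.17 on H1 and H2 and of 4.04 and 0.20 on R1 and R2. TERT itself, which RPTEC/TERT1 carries as a transgene, did not share this order. It was at -4.05 and -4.36 on H1 and H2 and -3.62 and -4.67 on R1 and R2. These levels are not far above the floor, and TERT was well above background on 3 of the 4 arrays. Whether its probe reads the transgene was not tested.

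Of the 10 SLCO genes, 6 had a probe well above background on at least 1 array: SLCO1A2, SLCO2A1, SLCO2B1, SLCO3A1, SLCO4A1 and SLCO4C1. SLCO2A1, SLCO3A1, SLCO4A1 and SLCO4C1 were so on every array that gave them a value. SLCO2B1 was well above background on 1 array of each label, and SLCO1A2 on a single array. SLCO1B1, SLCO1B3, SLCO1C1 and SLCO5A1 were not well above background on any array. The count of members detected was 4 on H1, where the SLCO4A1 spot was left out, 5 on H2, 4 on R1 and 5 on R2.

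**Figure D1:**
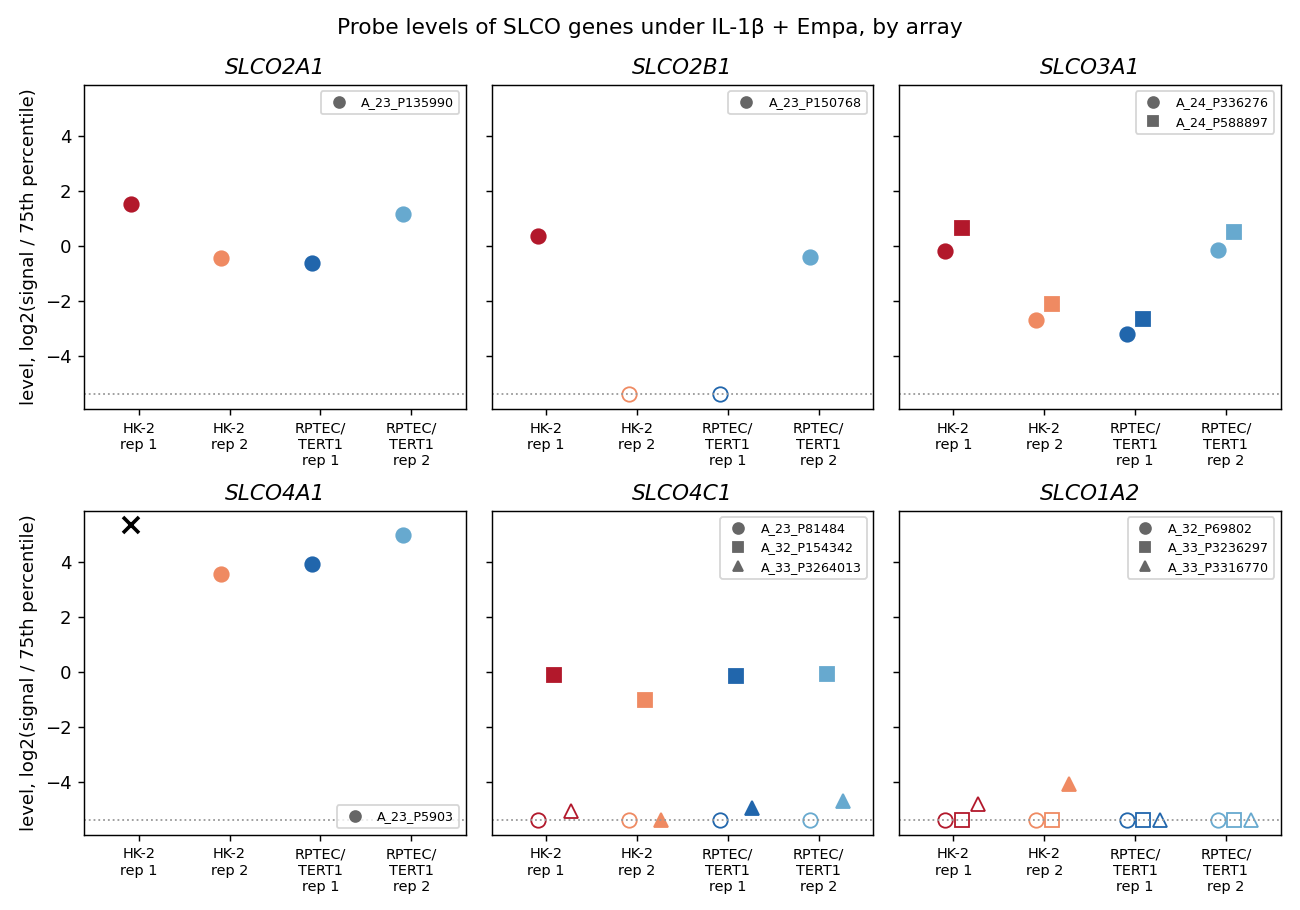
Levels of each probe of the 6 SLCO genes detected on at least 1 array (vertical axis, log2 of the signal over the 75th percentile of the array) on the 4 arrays (horizontal axis). Filled symbols are well above background, open symbols are not, the cross is the SLCO4A1 spot left out as an outlier, and the dotted line is the floor of -5.37. SLCO2A1, SLCO2B1 and SLCO3A1 are high on H1 and R2 and low on the other arrays.

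SLCO2A1 takes up prostaglandins, which are then oxidised in the cytoplasm, and so ends their signal. It is read by 1 probe, on the minus strand of GRCh37 at chr3:133651781-133651840, and the start of that probe is shown because every SLCO2A1 value below comes from it.
SLCO2A1 probe A_23_P135990, first 30 bases: tgttacagacaagcttatttccaaagccac
Its level was 1.54 on H1, -0.43 on H2, -0.61 on R1 and 1.18 on R2, well above background on all of them. H1 and R2 were the high arrays and H2 and R1 the low ones, and the labels overlapped. H1 was 3.91-fold higher than H2, and R2 was 3.44-fold higher than R1. The mean was 0.56 ± 1.39 (SD, n = 2) for HK-2 and 0.28 ± 1.26 (SD, n = 2) for RPTEC/TERT1. The difference of 0.27 on the log2 scale did not exceed the spread of the replicates (standard error 1.00, limma, adjusted p = 1 by the Benjamini-Hochberg method over 16669 genes).

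SLCO2B1 carries steroid sulphates and statins and is known from liver, intestine and placenta. Its single probe lies on the plus strand of GRCh37 at chr11:74917103-74917162, and its start is given because this gene went from undetected to detected on that probe alone.
SLCO2B1 probe A_23_P150768, first 30 bases: tgctggttggtatctgtaaatgtttaataa
The processed signal was 514 on H1 (level 0.39), -1.74 on H2, -0.361 on R1 and 327 on R2 (level -0.39). The signals of H2 and R1 were not well above background and stand at the floor. SLCO2B1 was therefore at least 54.1-fold higher on H1 than on H2, and at least 31.6-fold higher on R2 than on R1, each against the common floor. The folds depend on the background correction and were 14.8 and 7.84 after normexp correction and 13.5 and 6.65 in the deposited log2 values. In these settings SLCO1B1, detected on no array, was also 11.6-fold and 5.72-fold higher on H1 than on H2. Between R2 and R1 its folds were 1.18 and 1.07. The folds of 14.8 and 13.5 can therefore not be told apart from the background of H1 in these settings. On H1 and R2, where SLCO2B1 was detected, its signal was 99.8 and 142 times the 95th percentile of the 153 negative control spots. The brightest of these spots had a signal of 171 on H1 and 12.1 on R2. Between the labels the difference was 0.39 (standard error 2.63, adjusted p = 1, limma), far inside the spread between replicates.

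SLCO3A1, a broadly expressed member that carries prostaglandins and thyroxine, is read by 2 probes. One spans 11801 bases of the genome with its 60 bases, at chr15:92694193-92705993, and so crosses at least 1 splice junction, and the other lies at chr15:92709063-92709122, both on the plus strand of GRCh37. Both are shown because they read separate stretches of the transcript.
SLCO3A1 probe A_24_P336276, first 30 bases: gaactcaagtcttacgctttgggagttctt
SLCO3A1 probe A_24_P588897, first 30 bases: gatttcctggtaagatcattggatttacag
The junction probe had levels of -0.18 and -2.69 on H1 and H2 and of -3.18 and -0.13 on R1 and R2. The other probe had levels of 0.68 and -2.11 on H1 and H2 and of -2.64 and 0.52 on R1 and R2. Both probes ordered the arrays with the same pair high and the same pair low, and all 8 values were well above background. H1 exceeded H2 by 5.71-fold on the first probe and 6.90-fold on the second, and R2 exceeded R1 by 8.27-fold and 8.97-fold. Averaged over the probes, the gene stood at -1.07 ± 1.87 (SD, n = 2) for HK-2 and -1.36 ± 2.20 (SD, n = 2) for RPTEC/TERT1. Their difference of 0.28 did not exceed the replicate spread (standard error 1.46, adjusted p = 1, limma).

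SLCO4A1 carries thyroid hormones, prostaglandins and taurocholate in many tissues. Its only probe lies on the plus strand of GRCh37 at chr20:61303447-61303506, and it is shown because a single spot per array carries the gene.
SLCO4A1 probe A_23_P5903, first 30 bases: tatttatggacacacagtttgcatcagaac
The spot on H1 was marked as a non-uniform outlier and left out. The level was 3.58 on H2, 3.92 on R1 and 4.98 on R2. R2 was 2.09-fold higher than R1. With 1 array left for HK-2, the difference was -0.87 (standard error 0.78, adjusted p = 1, limma), and the lone HK-2 array is taken to have the spread of the rest. The omitted spot had a signal of 15863 and a level of 5.33. With it kept, the difference turned to 0.01.

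SLCO4C1, the tubular member, carries digoxin, thyroid hormone and uraemic organic anions. The design names 3 probes SLCO4C1, and they do not read the same strand. One matches the transcript NM_180991, on the minus strand of GRCh37 at chr5:101569975-101570034, which is the strand RefSeq gives for the gene. The other probes match the sequence record AF119865 on the plus strand, at chr5:101570685-101570744 and chr5:101571220-101571279. Their starts are printed because the gene's value depends on which of them is read.
SLCO4C1 probe A_32_P154342, minus strand, first 30 bases: gggttcacctagatcatatgagttgatgtg
SLCO4C1 probe A_23_P81484, plus strand, first 30 bases: ttccgtctttggtgtttatatctgtctggt
SLCO4C1 probe A_33_P3264013, plus strand, first 30 bases: gcttgtaaaatactttatcaaatcaatgca
The minus strand probe had levels of -0.11 and -0.997 on H1 and H2 and of -0.13 and -0.07 on R1 and R2, with raw processed signals between 365 and 448. H2 was the low array after scaling, and the remaining values differed by at most 0.053. Before scaling, the signal was 375 on H2 and 365 on H1, where the 75th percentile was 748 and 393. Unscaled, H1 and H2 were thus close on this probe, and the part of the scaling in the low level of H2 was not tested. A_23_P81484 was not well above background on any array, and A_33_P3264013 had signals of 12.0 to 16.7 and was well above background on all arrays but H1. As the mean of its detected probes the gene stood at -2.88 ± 0.43 (SD, n = 2) for HK-2 and -2.45 ± 0.11 (SD, n = 2) for RPTEC/TERT1. The difference was -0.43 (standard error 0.47, adjusted p = 1, limma), and it was -0.45 on the minus strand probe alone (standard error 0.54, adjusted p = 1).

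The members SLCO1A2, SLCO1B1, SLCO1B3, SLCO1C1 and SLCO5A1 gave little or no signal. SLCO1A2, which carries bile acids and steroid conjugates, has 3 probes, of which A_33_P3316770 (transcript ENST00000463718) alone was detected, on H2 with a signal of 45.0. Its signal was 14.3 on H1, 8.34 on R1 and 10.1 on R2, none of them well above background. Both probes of the transcript NM_134431 stood at the floor on every array. SLCO1C1 is spotted 10 times, and its signals ran from -6.09 to 6.15 over all spots and arrays. SLCO1B1, SLCO1B3 and SLCO5A1 have 1 probe each and stood at the floor on all 4 arrays. At this signal over background a low level of these transcripts was not detectable, which does not show that they are absent.

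The levels of 3 members shared an order of the arrays that runs against the labels. SLCO2A1, SLCO2B1 and SLCO3A1 were each at least 2-fold higher on H1 than on H2, which makes 3 of the 5 members with a value on all arrays and a detected probe, against 17.5% of all 17928 genes. The same 3 were at least 2-fold higher on R2 than on R1, against 21.1% of all genes. For both together the count was 3 of 5, against 11.4% of all genes. SLCO2B1 was detected only on H1 and R2, so it entered this count through its high arrays, with its low values at the floor. SLCO2A1 and SLCO3A1 were detected on all arrays. The reverse of both was met by 0 of the 5 and by 10.5% of all genes. With the outlier spot kept, SLCO4A1 joined them and the count was 4. These are counts over 5 genes and single arrays, without a test, and the background shows that this order of the arrays was widespread on these arrays in either direction.

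**Figure D2:**
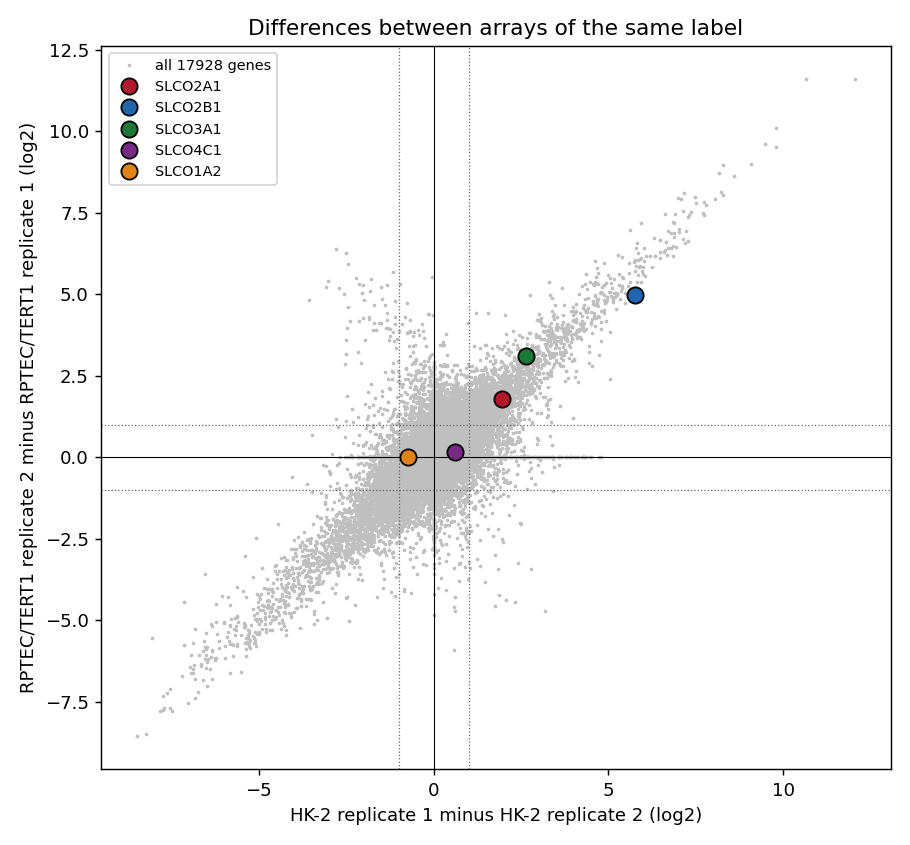
Difference between the arrays labelled HK-2 (horizontal axis, replicate 1 minus replicate 2, log2) against that between the arrays labelled RPTEC/TERT1 (vertical axis, replicate 2 minus replicate 1, log2), each grey point 1 of 17928 genes and dotted lines at 2-fold. SLCO2A1 (1.97 and 1.78), SLCO3A1 (2.65 and 3.11) and SLCO2B1 (5.76 and 4.98, both against the floor) lie at the upper right, within the diagonal of the other genes, while SLCO4C1 (0.61 and 0.15) and SLCO1A2 (-0.72 and 0) lie inside the lines.

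Set across the labels in the pairs H1 with R2 and H2 with R1, the same values lay close together. H1 minus R2 was 0.36 for SLCO2A1, 0.78 for SLCO2B1 and 0.05 for SLCO3A1 on the log2 scale. H2 minus R1 was 0.18 for SLCO2A1 and 0.51 for SLCO3A1, and SLCO2B1 was at the floor on both. Over all 17928 genes the median absolute difference was 0.21 for the first of these pairs and 0.30 for the second, against 0.64 for H1 and H2 and 0.75 for R1 and R2.

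The labelled cell lines were compared with limma over 16669 genes, 5 of them SLCO genes. None of the 5 was called at an adjusted p under 0.05, nor at an unadjusted one, and the background was 0% of all genes tested, with 24 genes at an unadjusted p under 0.05. Because each array was closer to 1 array of the other label than to its replicate, the replicate spread in this fit was large. A lack of calls therefore does not show that the lines are alike. The median difference, HK-2 minus RPTEC/TERT1, was 0.27 over the 5 members and 0.02 over all genes tested. Within replicate 1 the difference was 2.15 for SLCO2A1, 5.76 for SLCO2B1 and 3.16 for SLCO3A1. Within replicate 2 it was -1.60 for SLCO2A1, -4.98 for SLCO2B1 and -2.60 for SLCO3A1. Each of these compares 1 array with 1 array. Arrays of 1 replicate number were scanned on the same date, and the part of that date was not tested. The levels of the labels did not overlap for 2 of the 5 members with a value on all arrays, SLCO1A2 and SLCO4C1, against 7.45% of all genes. For SLCO1A2 this rests on 1 detected spot, and for SLCO4C1 on the mean of probes of opposite strands, since its minus strand probe overlapped.

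**Figure D3:**
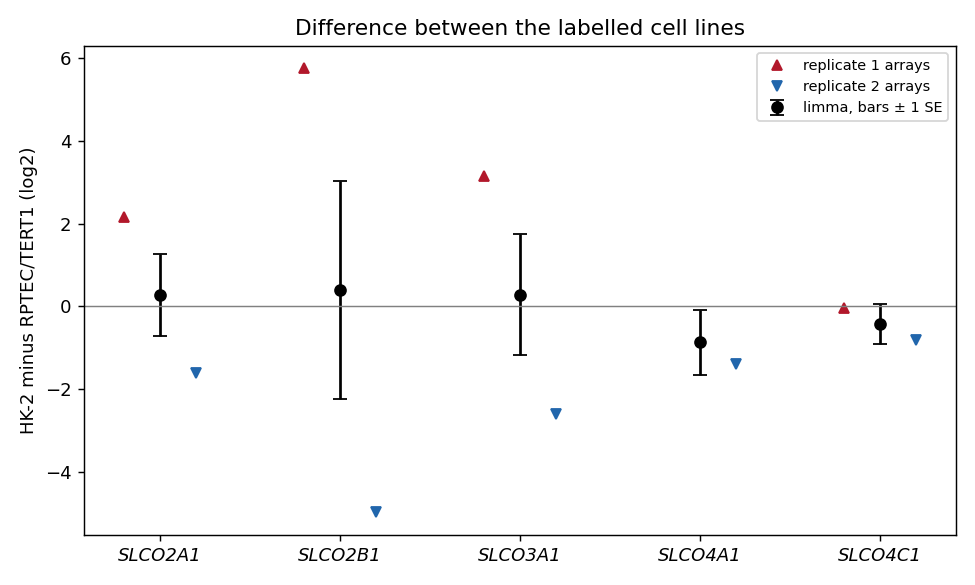
Difference in level, HK-2 minus RPTEC/TERT1 (vertical axis, log2), for the 5 SLCO genes tested: black points with bars give the limma estimate ± 1 standard error, triangles the difference within replicate 1 (up) and within replicate 2 (down). SLCO2A1, SLCO2B1 and SLCO3A1 have triangles on opposite sides of 0, SLCO4A1 has no value within replicate 1, and only the bar of SLCO4A1 stays clear of 0, at -0.87 with a standard error of 0.78.

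The genes whose levels followed those of single members most closely were sought among 13777 genes well above background on all arrays, by the root mean square distance of array-centred levels. For SLCO3A1 they were TSPAN12 (distance 0.024), IL1R1 (0.031) and TMC6 (0.068), with Pearson's r of 1.00, 1.00 and 0.999 over 4 arrays. IL1R1, the signalling receptor of IL-1β, had levels of -1.24 and -3.92 on H1 and H2 and of -4.48 and -1.31 on R1 and R2. For SLCO2A1 they were FAM47E (0.056), JAK2 (0.061), a kinase of cytokine receptors, and TMEM74B (0.067), with r of 0.998, 0.999 and 0.998 over 4 arrays. For SLCO4A1, over 3 arrays only, they were the unnamed probe A_33_P3349597 (0.0061), NAT1 (0.0062) and MYOG (0.0078), each with r of 1.00. All arrays share 1 treatment, and with so few points a correlation this high describes the order of the arrays and no more.

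Genes of prostaglandin handling, the pathway of SLCO2A1, were all on the arrays, and 14 of 16 were detected on at least 1 of them. Of the 13 tested, 0 differed between the labels, and their median difference was 0.19, against 0.02 over all genes tested. In the order of the arrays, 2 of the 14 with all values followed SLCO2A1 (at least 2-fold in both pairs) and 4 went the opposite way. Over all 17928 genes the shares were 11.4% and 10.5%. AKR1C3, a reductase that makes prostaglandin F and is close in sequence to other AKR1C genes, had levels of 5.06 and -1.94 on H1 and H2 and of -2.60 and 5.36 on R1 and R2. PTGER4, a prostaglandin E2 receptor, followed the same order at -0.87, -2.11, -2.17 and -0.59. The opposite order was held by PTGES, the inducible prostaglandin E synthase, at -5.37, -3.28, -4.03 and -5.28, and by PTGDS, a prostaglandin D synthase, at -2.18, 1.51, 0.48 and -1.80. It was also held by PTGER1, another E2 receptor, at -5.37, -2.01, -2.51 and -5.37, and by PTGES3, a co-chaperone with synthase activity, at 0.19, 2.19, 1.83 and 0.38.

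The rest of the prostaglandin genes differed less between arrays or in 1 pair only. HPGD, the dehydrogenase that oxidises prostaglandins once they are taken up, had levels of -3.79, -2.49, -3.05 and -3.89. ABCC4, the exporter of prostaglandin E2, stood at -1.95, -2.25, -2.46 and -1.73, and the receptor gene PTGER2 at 0.56, 1.22, 1.69 and 0.53. PTGS1, the constitutive cyclooxygenase, was between -4.25 and -3.25. PTGS2, the inducible cyclooxygenase, was at the floor on all arrays and not well above background on any of them. PTGES2 was between -0.81 and 0.05, PTGFR between -3.55 and -2.57, and CBR1, a reductase, between 1.54 and 2.60. PTGIS was detected on 1 array, at -4.98 on H2, and PTGER3 on none.

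**Figure D4:**
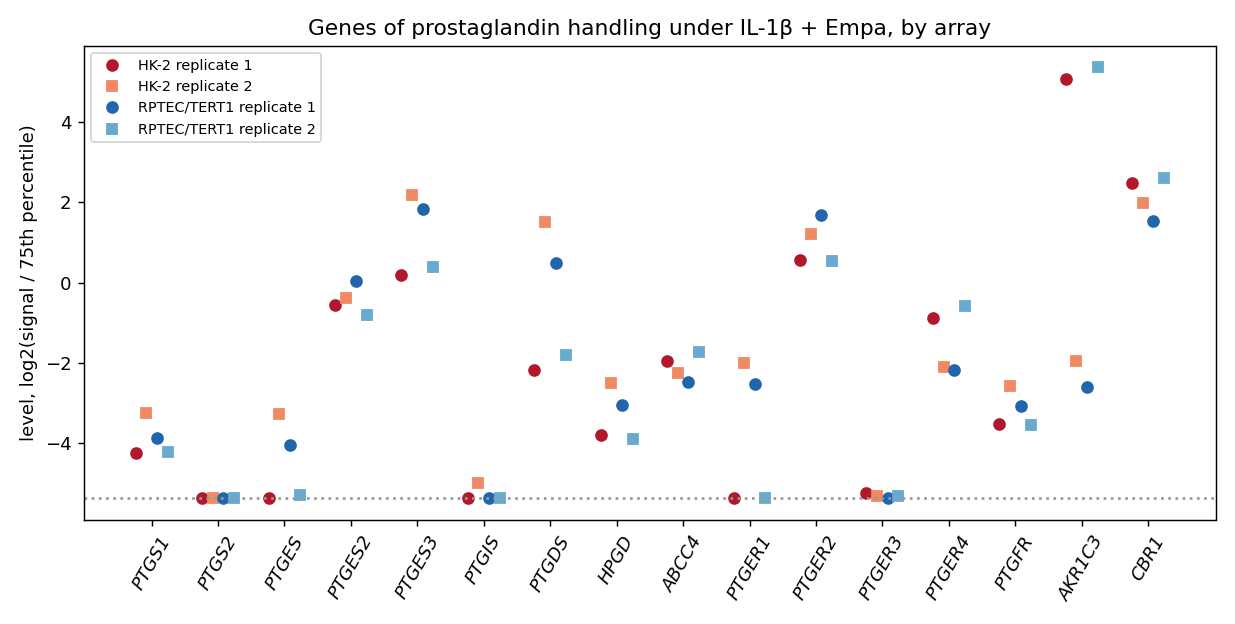
Levels (vertical axis, log2 of the signal over the 75th percentile) of the 16 genes of prostaglandin handling on each of the 4 arrays, with the floor of -5.37 as a dotted line. AKR1C3 is high on H1 and R2 (5.06 and 5.36), PTGDS on H2 and R1 (1.51 and 0.48), and PTGS2 lies on the floor throughout.

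Among 10 genes of thyroid hormone handling, 8 were detected and 0 of 7 tested were called (median difference -0.14). Of the 8 with all values, 2 held the order of SLCO2A1 and 1 the opposite order, against 11.4% and 10.5% of all genes. SLC16A10, an aromatic amino acid transporter that also carries thyroid hormones, had levels of -2.41, -4.87, -4.96 and -2.38. SLC7A5, an amino acid transporter that also carries thyroid hormones, went the other way at -1.001, 1.73, 1.99 and -1.51. Of 16 genes of organic anion uptake and efflux, 10 were detected and 0 of 9 were called (median 0.03). Among the 10 with all values, 2 held the order of SLCO2A1 and 1 the opposite, against the same shares. The efflux pumps ABCC3 (2.80, -0.96, -1.20 and 2.77) and ABCB1 (-1.43, -4.34, -4.22 and -1.21) followed the former, and ABCC6 (-4.36, -2.81, -2.66 and -4.58) the latter.

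Of 14 regulators and scaffolds known for OATP genes, 11 were detected and 0 of 11 were called (median -0.0033). Among the 11 with all values, 4 held the order of SLCO2A1 and 1 the opposite, against 11.4% and 10.5% of all genes. NR1H4, the bile acid receptor FXR, had levels of 0.85, -2.63, -3.96 and 0.71. PDZK1, a scaffold of apical transporters, went the other way at -1.34, 1.52, 1.04 and -0.86, and VDR was between -2.76 and -1.55. Of 9 genes of steroid conjugation 7 were on the arrays, 3 were detected and 0 of 3 were called (median -0.05). HSD17B1, which makes oestradiol, had levels of -2.93, -3.97, -4.24 and -2.71. This order was held by 2 of the 2 with all values, against 11.4% of all genes.

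The labelled cell type was checked against marker genes. Of 14 proximal tubule markers 11 were detected on at least 1 array and 7 on all, while CUBN, SLC22A6 and HNF4A were detected on none. ANPEP, the brush border aminopeptidase N, was at 0.49 and 0.47 on H1 and R2 and at the floor on the others. This order was held at 2-fold or more by 2 of the 11, against 11.4% of all genes. PAX8, a transcription factor of the renal epithelium, stood at 4.13, 1.61, 2.79 and 3.73. The endocytic receptor gene LRP2 (megalin) was lower on H1 than on H2 and on R2 than on R1, at -3.34, -1.72, -2.77 and -3.06. MME, GGT1 and SLC4A4 also ran this way in both pairs, by 0.83 or less on the log2 scale. All 6 epithelial markers were detected, with a summed signal of 130 and 47.9 times the 75th percentile on H1 and H2 and of 52.8 and 140 times on R1 and R2, again the order of SLCO2A1. KRT19 and KRT7 weigh most in this sum, at levels of 5.88 and 5.52 on H1. At 2-fold or more in both pairs the order was held by 3 of the 6, against 11.4% of all genes, and EPCAM differed by 0.30 between H1 and H2. CDH1, E-cadherin, was at -0.72 and -1.12 on the high arrays and at the floor on the low ones. Of 5 fibroblast markers 3 were detected, and LUM was at 0.23 and -0.30 on H2 and R1 and at the floor on the others. Their summed signal was 0.081, 1.87, 1.41 and 0.079, and PDGFRB and PDGFRA were detected on none. Detected were also 2 of 4 endothelial markers (summed signal 0.15 to 0.34, VWF and TEK on none), 3 of 4 leukocyte markers (0.19 to 0.34) and 3 of 5 hepatocyte markers (8.81 to 13.7, nearly all SERPINA1, ALB and TTR on none). The part of these genes in the SLCO values was not tested, and a change in the share of cells cannot be told apart from a change of RNA per cell.

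The stretch before the transcription start was read from RefSeq (GRCh38.p14), which held 9 windows for 6 of the members, SLCO1A2, SLCO1B1, SLCO1B3, SLCO2B1, SLCO3A1 and SLCO4C1. In the 250 bases before each start, the GC content was 29.2% in the window of SLCO1B1 and 28.4% in that of SLCO1B3, 32.8% and 34.8% in those of SLCO1A2, 69.2% in that of SLCO4C1, between 58.4% and 58.8% in those of SLCO2B1 and between 78.4% and 80.4% in those of SLCO3A1, against a median of 58.0% over all windows.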

How the data were processed

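RNA labelled with Cy3 was hybridised to 1-colour Agilent arrays. The authors deposited the spot intensity values of each array from Agilent Feature Extraction 9.5.3.1, background-subtracted and not scaled between arrays, with flags. A series table deposited beside them holds log2 values per spot. Sources used here do not say how these were normalized, scaled or centred, and they served as an alternative. The methods describe the 2 arrays of a cell line as biological duplicates, and name another RNA kit than the labels do.

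Control and outlier spots were left out. Each processed signal was scaled to the 75th percentile of its array, held at a floor of 0.0242 (the highest, over arrays, of the lowest scaled signal well above background) and taken to log2. Probes of a gene were averaged where detected on at least 1 array, which gave 25667 of 25992 gene names a value on all arrays. The labels were compared in R 4.3.3 by limma 3.58.1, with lmFit and eBayes, over genes with at least 3 values and well above background on at least 2 arrays, with Benjamini-Hochberg adjustment at 0.05. Pairs of single arrays were described at 2-fold without a test. This fit was also run on simulated data with known changes. The simulated replicates were alike within each label, unlike these arrays, so that run does not show what the fit could detect here. No column of another sample was present.

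Genes were named by this rule: all members, all genes of prostaglandin handling, and of each other list up to 3 genes detected on all arrays with the largest range. ANPEP, TERT, CDH1, LUM, CDKN2A and other markers were named after their values had been seen. Some genes of the lists and the searches for motifs in promoters are not reported here. Of the 15 member probes, 12 match a transcript that RefSeq lists under the same symbol. Probe positions are those of the files (GRCh37), for which no gene annotation was used, so exon and UTR are not given. The members and lists were chosen with earlier results of these data known. Intervals are not given, since the number of arrays limits the precision. The alternatives were background correction, normalization, outlier spots, probe choice, filter, replicate block and leaving out each array.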

Additional observations from a re-analysis of the deposited data

Results flagged for a closer look

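SLCO2A1, SLCO2B1 and SLCO3A1 were flagged because the difference between the labelled cell lines ran in opposite directions within the replicates. This is not particular to them. Of all 17928 genes, 11.4% were at least 2-fold higher both on H1 than on H2 and on R2 than on R1, and 10.5% met the reverse. HK-2 minus RPTEC/TERT1 within replicate 1 was 2.15 for SLCO2A1, 5.76 for SLCO2B1 and 3.16 for SLCO3A1. Within replicate 2 it was -1.60 for SLCO2A1, -4.98 for SLCO2B1 and -2.60 for SLCO3A1. Each value compares 1 array with 1 array, and the difference between the replicates was not tested.

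The SLCO4A1 spot left out on H1 had a level of 5.33 and was well above background. The SD of its pixels was 18.04% of their mean, against 16.2% to 18.2% for the same spot on the other arrays, and it was not saturated. The antisense gene SLCO4A1-AS1, which is no member, was well above background on every array, at -1.36 on H1, -1.75 on H2, -1.73 on R1 and -1.46 on R2.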

How the results depend on the processing

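limma called 0 genes and 0 SLCO genes between the labels under every alternative run, with 4 to 247 genes at an unadjusted p under 0.05, and leaving out each array in turn gave 0 and 0. With the replicate block, 0 of 16468 genes were called (5 unadjusted). With the numbers crossed, added after seeing the data because same-numbered arrays deviated with a correlation of -0.784, the block called 0 (183 unadjusted). No call changed, but directions did, and the cause was not tested. Each array was closer to 1 array of the other label than to its replicate. Unchanged calls therefore do not show that the cell lines are alike. After normexp correction the difference was -0.13 for SLCO2A1, -0.15 for SLCO2B1 and 0.27 for SLCO4C1, and in the deposited log2 values -0.15 for SLCO2B1 and 0.059 for SLCO4C1. The undetected SLCO1B1 was then at -0.32 on H1 and between -3.86 and -3.08 on the other arrays with normexp correction. In the deposited values it was at -1.09 on H1 and between -3.61 and -2.97 on the others. With normexp correction, SLCO4C1 on H1 moved from -2.57 to -0.15 and SLCO2A1 from 1.54 to 0.68. The part of H1 in the changed directions was not tested. Leaving out 1 array gave -0.71 (without H1) to 1.26 (without H2) for SLCO2A1, -2.10 (without R1) to 3.27 (without H2) for SLCO2B1 and -1.27 (without R1) to 1.84 (without R2) for SLCO3A1. The range was -0.73 (without H1) to -0.12 (without H2) for SLCO4C1, which stood at -0.43 on all arrays. SLCO2B1 failed the filter, and was not fitted, without H1 or without R2. SLCO2A1 was also below 0 without R1 (-0.62), and SLCO3A1 without H1 (-1.04). With outlier spots kept, SLCO4A1 turned to 0.0050. The members detected on at least 1 array were 6, or 4 where every probe had to be and 7 above the 95th percentile of the negative controls, and those opposed between replicates were 3, or 2 after normexp correction and 4 with outlier spots kept. Each of these alternatives used 4 or fewer arrays, and signal over background limits SLCO1A2 and SLCO2B1.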

Other observations

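The other SLCO names of the arrays, SLCO1B7, SLCO6A1 and lnc-SLCO1A2-1, stood at the floor of -5.37 on all 4 arrays.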
